A study of Mus musculus with 5 samples.

Results

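The genes described are those of MHC class I antigen presentation and of the immunoproteasome in 3T3-L1 adipocytes. They were chosen from a fixed list of 10 mouse genes by matching the single gene symbol of each array probe set, and 9 of the 10 had a probe set, out of 19505 genes named on the array. Nlrc5, which encodes a transcriptional activator of class I genes, had no named probe set and is not analysed here. None of the 9 had more than 1 probe set, so no choice between sets was needed.

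RNA came from 3T3-L1 cells, a mouse preadipocyte line of embryonic origin that stores fat after hormonal induction. In all 5 cultures the cells were kept for 4 days in basal medium, for 4 days with 5 µg/mL insulin, 1 µM dexamethasone and 0.5 mM IBMX, for 2 days with insulin and for 1 day in basal medium again. The mature cells then spent 72 h in RPMI-1640 with 10% FBS. For 3 of them (exposed) MM.1S cells, a human multiple myeloma line, were present on the other side of a transwell membrane with 0.4 µm pores, and for 2 (control) they were absent. The labels number the cultures as replicates without saying that they were started separately, so the intervals and p-values below measure only the spread between these samples. Each RNA was read on 1 Clariom S array, and levels are deposited log2 values.

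MHC class I molecules show peptides from inside the cell to CD8 T cells. The proteasome cuts proteins into peptides, and cells exposed to interferon can exchange its 3 catalytic subunits for inducible ones that form the immunoproteasome. A transporter carries the peptides into the endoplasmic reticulum, where they are loaded onto a heavy chain bound to beta-2-microglobulin. Interferon-gamma is the best known inducer of most of these genes.

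With and without myeloma cells the class I and immunoproteasome genes differed in mean by at most 0.13 on the log2 scale, and no member passed the test. At a Benjamini-Hochberg adjusted p under 0.05, limma called 0 of 9 members, against 0% of all 22206 probe sets. At an unadjusted p under 0.05 the count was 0 of 9, against 3.49% of all probe sets. Of the 9 genes 4 had a higher mean on exposed arrays, against 49.9% of all probe sets, and 5 a lower one, against 50.1%, and the median difference (exposed minus control) was -0.0026 on the log2 scale, beside -0.00040 over all probe sets. That median was 0.079 without exposed array 2 and -0.079 without control array 2. The 95% interval of the difference lay within 2-fold in either direction for 9 of 9 members, against 92.9% of all probe sets, and within 1.5-fold for 8 of 9, against 52.7%. The exception to the narrower bound was Tap2.

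**Figure D1:**
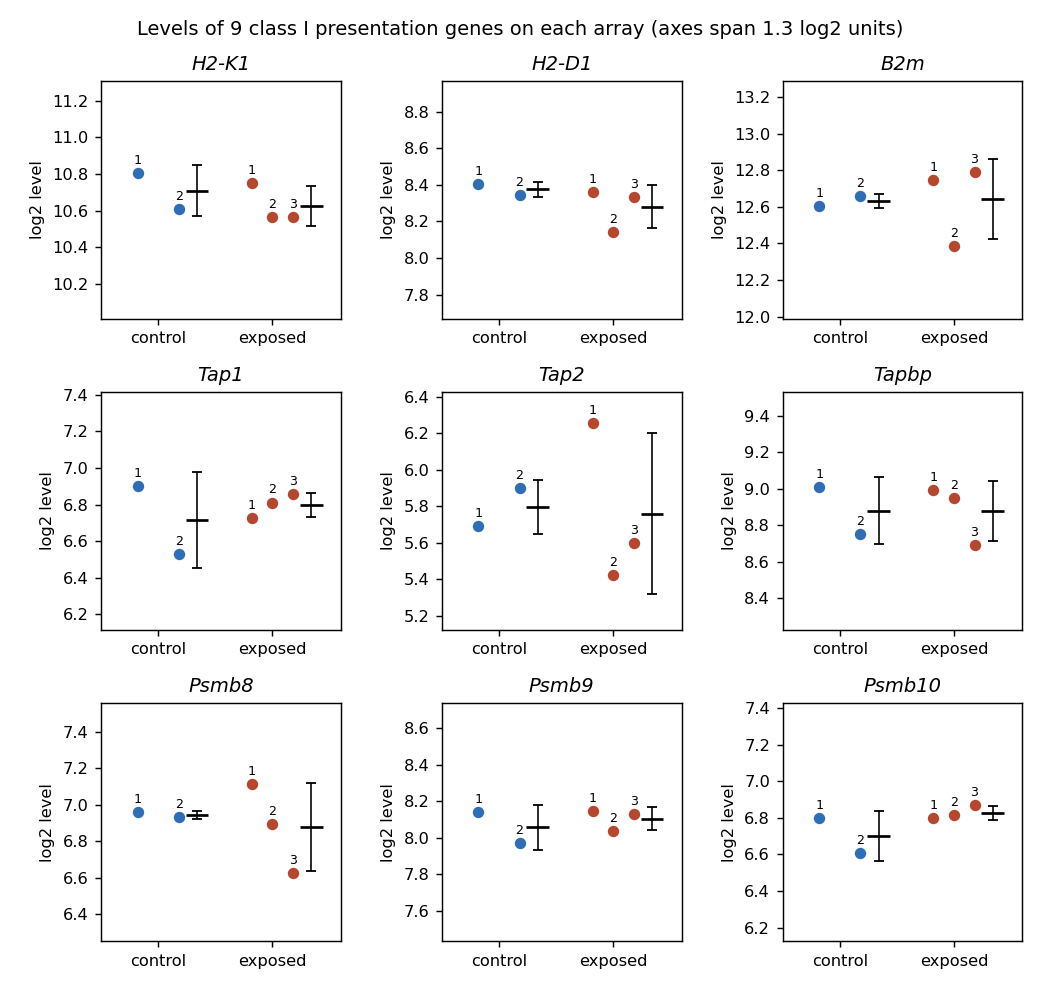
Log2 level (vertical axis) of each of the 9 genes on the 2 control arrays (blue) and the 3 exposed arrays (red), with the replicate number above each point and the group mean ± SD as a black bar to the right of its group. The groups overlap for every gene except Psmb10, and Tap2 on exposed array 1, at 6.26, is the point farthest from its gene's other values.

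The genes of the class I molecule itself had overlapping levels in both groups. H2-K1, a classical heavy chain, read 10.75, 10.56 and 10.56 on exposed arrays 1 to 3 and 10.81 and 10.61 on control arrays 1 and 2. The highest value was a control, and control array 2 lay between the exposed values. The means were 10.63 ± 0.11 (SD, n = 3) and 10.71 ± 0.14 (SD, n = 2), a difference of -0.083 (95% interval -0.42 to 0.26, limma adjusted p 0.95). It was 0.016 without control array 1 and -0.18 without control array 2. H2-D1, the other classical heavy chain, read 8.36, 8.14 and 8.33 on exposed arrays against 8.41 and 8.35 on control arrays. Exposed array 2 was the low one and exposed array 1 fell between the controls. Its difference was -0.096 (-0.42 to 0.23, limma adjusted p 0.94), and it ran from -0.14 without exposed array 1 to -0.028 without exposed array 2. B2m, the light chain that every classical class I molecule needs, read 12.75, 12.39 and 12.79 against 12.61 and 12.66. The controls thus sat inside the exposed range, and the difference was 0.0098 (-0.39 to 0.41, limma adjusted p 1.00), which became -0.0081 when arrays were centred on their medians, 0.14 without exposed array 2 and -0.064 without exposed array 3. H2-K1 and H2-D1 are close paralogs of a polymorphic family, so probes for either may take up signal from the other, which was not tested.

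Sequences upstream of these 3 genes are shown because they hold the spaced elements through which class I genes are known to be switched on. They come from RefSeq (GRCm38.p6, strain C57BL/6J), each 5′ to 3′ in the direction of the gene, in lower case with motif matches in capitals. The window searched was the 250 bases before each start site (H2-K1 has 2 listed starts, and the outer one is shown), on both strands, for a kappa-B-like motif (GGGA, any 4 bases, then CC), a core of the interferon-stimulated response element (GAAA, any 2 bases, then GAAA), a gamma-activated site core (TTCNNNGAA), the X2 or CRE-type TGACG and the Y box CCAAT, which reads ATTGG on the other strand. The stretch of H2-K1 is chr17:34000349-34000473 on the minus strand, that of H2-D1 is chr17:35262908-35263032 on the plus strand, and that of B2m is chr2:122147545-122147648 on the plus strand.
H2-K1: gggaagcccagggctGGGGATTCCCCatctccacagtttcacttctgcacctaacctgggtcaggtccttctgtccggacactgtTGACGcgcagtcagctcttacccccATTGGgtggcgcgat
H2-D1: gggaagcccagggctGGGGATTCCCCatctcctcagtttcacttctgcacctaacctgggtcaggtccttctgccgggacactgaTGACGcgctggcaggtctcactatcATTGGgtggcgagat
B2m: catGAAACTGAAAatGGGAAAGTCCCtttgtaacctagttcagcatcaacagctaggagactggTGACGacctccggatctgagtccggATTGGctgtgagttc

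In all 3 stretches TGACG was followed by ATTGG 25 bases downstream, start to start. The kappa-B-like match began 70 bases before TGACG in H2-K1 and H2-D1 and 49 bases before it in B2m, and in each stretch the capitals there are overlapping matches on opposite strands. The stretches of H2-K1 and H2-D1 were identical at 113 of 125 bases (90.4%). The pair of motifs at that spacing, looked for after the matches were seen, was in 30 of 32851 RefSeq windows (0.0913%), which belong to 26 genes. Another of these genes was H2-M3, a nonclassical heavy chain. The interferon-stimulated core was found upstream of B2m alone among the 8 members with a window, and in 2.98% of all windows. Only the exact letters of the core were searched. Looser forms of the element, which the H2-K1 and H2-D1 stretches could hold, were not looked for. The kappa-B-like motif was found for 3 of the 8 members and in 17.6% of all windows, TGACG for 5 and in 17.8%, and CCAAT for 6 and in 33.8%. The counts of 5 and 6 take Tap1 and Psmb9 singly, although their matches are the same bases of a shared interval. A match is a string of letters and not a measured binding site, and the sequence carried by 3T3-L1 cells was not read here.

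The transporter genes differed most in how they varied between arrays. Tap1 and Tap2 encode the subunits that together carry peptides into the endoplasmic reticulum. Tap1 read 6.73, 6.81 and 6.86 on exposed arrays and 6.90 and 6.53 on control arrays, so the controls bracketed all exposed values. The difference was 0.085 (95% interval -0.29 to 0.46, limma adjusted p 0.95). Leaving out control array 2 turned it to -0.10, and leaving out control array 1 gave 0.27. Tap2 read 6.26, 5.43 and 5.60 against 5.69 and 5.90. Exposed array 1 was the highest and exposed array 2 the lowest of the 5, a range of 0.83 that 15.7% of all probe sets exceeded. The Tap2 difference was -0.035 (-0.67 to 0.60, limma adjusted p 0.99), the widest interval of the members, and it was -0.28 without exposed array 1 and 0.13 without exposed array 2. Taking Tap2 minus Tap1 within each array, the deviation from the mean was 0.52, -0.39 and -0.27 on exposed arrays 1 to 3 and -0.22 and 0.36 on control arrays 1 and 2. The balance of the subunits' signals thus moved more inside each group than between the groups.

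Tapbp encodes tapasin, which holds empty class I molecules at the transporter until a peptide fits. It read 8.99, 8.95 and 8.69 on exposed arrays against 9.01 and 8.75 on control arrays, and both groups spread over the same range. The difference was -0.0026 (95% interval -0.39 to 0.38, limma adjusted p 1.00). Without exposed array 3, the lowest, it was 0.091, and it ran from -0.13 without control array 2 to 0.13 without control array 1.

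Among the 3 inducible proteasome subunits, Psmb8 varied over the arrays unlike Psmb9 and Psmb10. Psmb8, the chymotrypsin-like subunit also called LMP7, read 7.11, 6.90 and 6.63 on exposed arrays and 6.96 and 6.93 on control arrays. The controls lay close together inside the exposed range, with exposed array 1 on top and exposed array 3 at the bottom. Its difference was -0.065 (95% interval -0.48 to 0.35, limma adjusted p 0.97) and turned to 0.060 without exposed array 3, and it was -0.18 without exposed array 1. Psmb9, or LMP2, read 8.15, 8.04 and 8.13 against 8.14 and 7.97, a total range of 0.18 that 92.3% of all probe sets exceeded. Its difference was 0.049 (-0.26 to 0.36, limma adjusted p 0.97), which was -0.038 without control array 2 and 0.14 without control array 1.

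Psmb10, or MECL-1, was the member with the largest difference in size. It read 6.7977, 6.81 and 6.87 on exposed arrays and 6.7970 and 6.61 on control arrays, so the groups were apart only by the last decimals between exposed array 1 and control array 1. The means were 6.83 ± 0.04 (SD, n = 3) and 6.70 ± 0.14 (SD, n = 2), and the difference was 0.13 (95% interval -0.19 to 0.44, limma adjusted p 0.93), or 1.09-fold. Without control array 2 it was 0.030, and without control array 1 it was 0.22. Psmb10 was 1 of 9 members whose groups did not overlap, against 17.3% of all probe sets, and of all probe sets 8.5% lay above both controls on every exposed array. No member lay below both controls on every exposed array, against 8.84% of all probe sets. A larger absolute difference than that of Psmb10 was found for 52.4% of all probe sets.

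**Figure D2:**
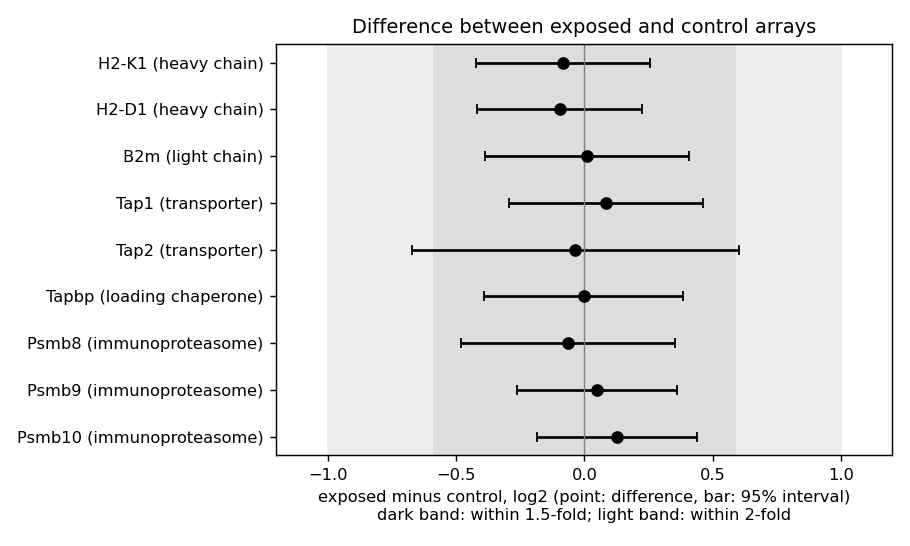
Exposed minus control difference in log2 level (horizontal axis) for each of the 9 genes, with 95% intervals from limma (n = 3 exposed and 2 control arrays). Bands mark 1.5-fold and 2-fold changes in either direction; all intervals cross 0, and the interval of Tap2, from -0.67 to 0.60, is the only one to leave the 1.5-fold band.

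The inducible subunits could be set against the standard ones whose place they take for Psmb9 (standard Psmb6) and Psmb10 (standard Psmb7), while Psmb5, the counterpart of Psmb8, had no named probe set and is not analysed here. Psmb9 minus Psmb6 within each array deviated from its mean by 0.0054, -0.11 and -0.012 on exposed arrays and by 0.30 and -0.19 on control arrays. The control array 1 value moved with Psmb6, which read 9.06 there and between 9.37 and 9.38 on the other arrays. Psmb10 minus Psmb7 deviated by 0.10, -0.13 and 0.10 on exposed arrays and by 0.084 and -0.16 on control arrays. In both cases exposed and control arrays overlapped. Among 13 measured standard subunits, activators and assembly factors limma called 0, with 7 higher and 6 lower in mean and a median of 0.012. Psme1, a subunit of the interferon-inducible activator PA28, differed by -0.18 (-0.56 to 0.20), and Psmf1, a proteasome inhibitor, by 0.15 (-0.21 to 0.50).

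Psmb9 and Tap1 lie head to head on chromosome 17, next to Psmb8 and Tap2, in an order that RefSeq gives as Psmb9, Tap1, Psmb8 and Tap2. The interval between their start sites is shown because both genes start at its ends and run in opposite directions. It spans chr17:34187331-34187555 (GRCm38.p6, 225 bases, plus strand, the direction of Tap1), with the CCAAT and TGACG matches in capitals.
Psmb9 and Tap1: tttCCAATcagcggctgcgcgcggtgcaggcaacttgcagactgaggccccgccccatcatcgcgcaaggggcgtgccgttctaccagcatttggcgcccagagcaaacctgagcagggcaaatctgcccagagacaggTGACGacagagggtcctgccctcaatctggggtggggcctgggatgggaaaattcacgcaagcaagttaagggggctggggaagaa

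CCAAT begins at base 4 from the Psmb9 end and TGACG at base 140 of the 225, and neither interferon core was matched. Over the arrays the Tap1 minus Psmb9 signal varied by 0.22 in all, against 0.91 for Tap2 minus Tap1. Both Tap1 and Psmb9 had their lowest value on control array 2, as did Psmb10, which lies on another chromosome. Upstream of Psmb8 a gamma-activated core was matched, which 7.02% of all windows hold, and no motif was matched upstream of Psmb10. Windows for Tap2 and Nlrc5 were not used here.

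The spread among arrays of a group was wider than the difference between groups for most members. The range over the 3 exposed arrays exceeded the absolute difference for 8 of 9 genes, and the gap between the 2 control arrays exceeded it for 7 of 9. These counts were not taken over all probe sets, so they do not set the members apart from other genes. The members' median range over the 5 arrays was 0.32, beside 0.50 over all probe sets and 0.44 over those at or above the median level. The median absolute difference of the members was 0.065, beside 0.13 over all probe sets and 0.12 over those at or above the median level, where all 9 members lie. No array carried all members up or down. Exposed array 1 was above a gene's own mean for 8 of 9 genes and control array 1 for 7 of 9. The counts were 3 for exposed array 2, 5 for exposed array 3 and 4 for control array 2. Averaged over members, the deviation was 0.12, -0.085 and -0.038 on exposed arrays 1 to 3 and 0.057 and -0.056 on control arrays 1 and 2.

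**Figure D3:**
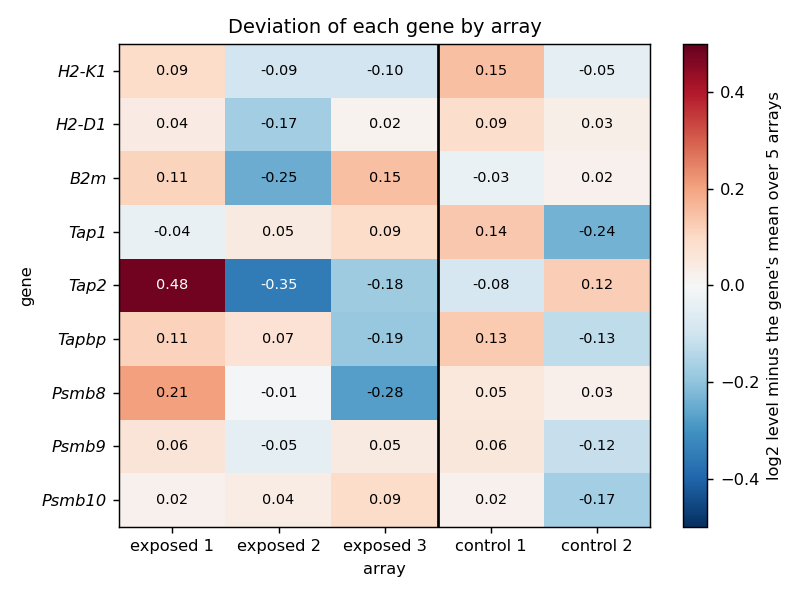
Deviation of each gene's log2 level from its own mean over the 5 arrays (colour and printed value), with genes in rows and arrays in columns, exposed arrays left of the black line. Tap2 has the strongest colours, from 0.48 on exposed array 1 to -0.35 on exposed array 2, and no column has a single colour throughout.

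Members were compared by the root mean square difference of their centred values over the 5 arrays. Of 36 pairs the most alike were Psmb9 and Psmb10, at 0.057, followed by Tap1 with Psmb10, at 0.065. H2-K1 and H2-D1 stood at 0.079, and the least alike were Tap1 and Tap2, at 0.37. Among 10016 other named probe sets whose mean reached the median of all sets, the closest to the members' mean profile were Gm14322 (0.0121), Hspbp1 (0.0185) and Sub1 (0.0191). As 87 probe sets lay within 0.05 of that profile, whose own root mean square was 0.077, these are a description of small variations on 5 arrays.

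Genes upstream of class I expression were likewise not called. Of 22 measured interferon receptors, kinases and transcription factors limma called 0, with 11 higher and 11 lower in mean and a median of -0.00032. Irf7, a transcription factor of the type I interferon response, read 4.63, 5.50 and 5.50 on exposed arrays against 5.56 and 5.76 on control arrays, a difference of -0.45 (95% interval -1.16 to 0.26). Exposed array 1 was the low one. Tyk2, a receptor-bound kinase, differed by -0.28 (-0.65 to 0.09). Every exposed array lay below both controls for 3 of the 22 genes, against 8.84% of all probe sets, and above them for 1, against 8.5%. Irf1, which binds class I promoters, read 7.82, 7.67 and 7.33 against 7.67 and 7.69, with the controls inside the exposed range. Ifng, the interferon-gamma gene, lay between 2.74 and 3.43 on all arrays, below the median of all probe sets.

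The factors that bind the X and Y boxes, shared by class I and class II genes, were counted together with Ciita. Of these 9 genes 2 were higher and 7 lower in mean, with a median of -0.030, and limma called 0. Nfya, a subunit of the CCAAT-binding factor NF-Y, differed by -0.24 (95% interval -0.65 to 0.18) and Nfyb, another subunit, by -0.22 (-0.64 to 0.21). Rfx5, of the complex that binds the X box, read 5.33, 6.09 and 6.24 on exposed arrays against 5.43 and 6.13 on control arrays, so replicate 1 was low in both groups. Ciita, the class II counterpart of Nlrc5, lay between 3.12 and 3.52.

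Peptide loading and trimming genes were 2 higher and 9 lower in mean, with a median of -0.12, and limma called 0 of 11. Ide, a peptide-degrading enzyme, read 6.51, 6.90 and 7.00 on exposed arrays against 7.34 and 7.03 on control arrays, a difference of -0.38 (95% interval -0.85 to 0.09). Ganab, which trims sugars from new glycoproteins, differed by -0.36 (-1.05 to 0.32), and exposed array 1 was the low one at 6.13 against 6.96 to 7.14 elsewhere. Calr and Pdia3, partners of tapasin in peptide loading, differed by 0.12 and -0.043, and Erap1, which shortens peptides to fit, by -0.18.

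Heavy chains outside the classical pair were split, with 11 higher and 10 lower in mean, a median of 0.0043 and 0 of 21 called by limma. H2-T3, which encodes the thymus leukaemia antigen, differed by 0.26 (95% interval -0.10 to 0.62) and H2-M10.1 by -0.24 (-0.68 to 0.19) at a low mean level of 2.76. H2-M3, the gene that shares the motif spacing, differed by -0.051 (-0.60 to 0.50). The H2-Q6, H2-Q7, H2-Q8 and H2-Q9 genes had no named probe set and are not analysed here.

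Interferon-inducible genes outside presentation were 5 higher and 12 lower in mean, with a median of -0.10, and limma called 0 of 17, with 2 of 17 at an unadjusted p under 0.05, against 3.49% of all probe sets. Those were Parp14 and Trim21, a ubiquitin ligase, at -0.39 (95% interval -0.74 to -0.046). Parp14, an ADP-ribosyltransferase, read 5.64, 5.09 and 5.20 on exposed arrays against 6.10 and 5.83 on control arrays, a difference of -0.66 (95% interval -1.15 to -0.16, limma adjusted p 0.93). Iigp1, an immunity-related GTPase, differed by -0.49 (-1.06 to 0.08). Parp14 and Trim21 lay below both controls on all 3 exposed arrays, as did 8.84% of all probe sets. The chemokine genes Cxcl10 (0.32) and Cxcl11 (0.14) lay above both controls on all 3 exposed arrays, as did 8.5% of all probe sets. Cxcl11 on exposed array 3 did so only in the last decimals, and its mean level of 3.63 was low. Cxcl9, a chemokine gene of the same list, was lower in mean (-0.22), and its groups overlapped. Beside these the members' differences lay between -0.096 and 0.13.

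**Figure D4:**
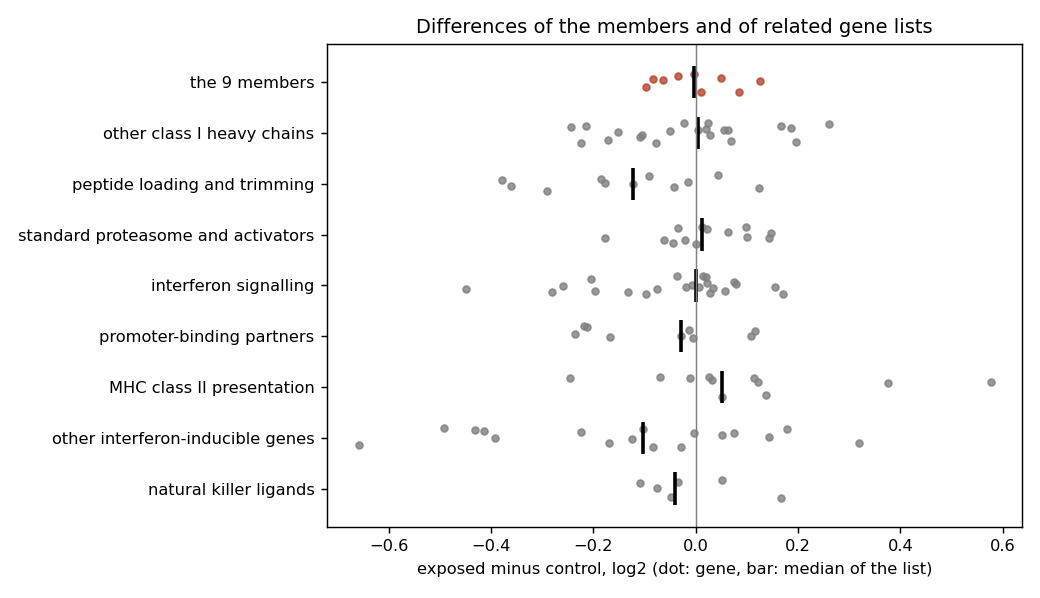
Exposed minus control difference in log2 level (horizontal axis) of the 9 members (red) and of the genes of 8 related lists (grey), with a black bar at each median. The members span -0.096 to 0.13, and the medians of the lists run from -0.12 for peptide loading to 0.052 for MHC class II presentation.

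For most cell types that a culture could hold, the mean over the markers overlapped between the groups, while some single markers did not. Mean levels of 9 adipocyte markers lay between 10.09 and 10.20 on exposed and between 10.13 and 10.17 on control arrays. Those of 8 macrophage and dendritic cell markers lay between 3.80 and 3.91 and between 3.81 and 3.98, those of 7 B and plasma cell markers between 3.43 and 3.76 and between 3.47 and 3.64, and those of 8 T and NK cell markers between 2.87 and 2.93 and between 2.83 and 2.93. The mean over 6 preadipocyte and fibroblast markers was lower on exposed arrays, between 9.34 and 9.44 against between 9.49 and 9.53. All exposed arrays lay under both controls for 3 of the 6, against 8.84% of all probe sets, while Thy1 was higher in mean (0.11). The mean over 5 endothelial markers was also lower, between 2.63 and 2.76 against between 2.81 and 2.85. Each of the 5 overlapped, however, and Tek and Kdr were higher in mean (0.25 and 0.046). Of the 5 endothelial and the 8 T and NK cell markers, 0 reached the median level of all probe sets, 4.81. Without detection calls, such levels do not show that these cell types were present. Of these lists limma called 0 genes, and their part in the members' values was not tested. Values from a whole culture do not tell fewer cells of a type from less RNA per cell.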

How the data were processed

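The table held log2 expression values for 22206 probe sets on 5 Affymetrix Clariom S mouse arrays. The authors made these log2 values with RMA in Partek, as the submitters' processing notes record. Tool versions and the build behind the annotation are not given in the sources used here. RMA sets all arrays to a like distribution, so a shift shared by most genes would be removed, and it compresses differences between dim signals. No detection calls were used.

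Symbols came from the platform annotation (19572 probe sets with 1 symbol, 0 with several, 2634 with none). Exposed (n = 3) and control (n = 2) arrays entered a single limma model (version 3.58.1, R 4.3.3, moderated by eBayes) over all probe sets, unfiltered and with no term besides group. Tests were two-sided with Benjamini-Hochberg adjustment over all probe sets. Residual degrees of freedom were 3 and the prior added 3.17. The script was tested on simulated data. The number of arrays limits the precision.

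The members and the lists were chosen with earlier results of these data known. Of 180 gene names in the lists and markers 153 had a probe set. Named were all members, called list genes or else the 2 of largest difference per list, and the 3 probe sets nearest in pattern. Irf1, Ifng, Rfx5, Ciita, Calr, Pdia3, Erap1, H2-M3 and Psmb6 were named for their known roles. Trim21, Cxcl9, Cxcl10, Cxcl11, Retn, Ms4a1, Tnfrsf17, Cd4, Ncr1, Cd3e, Thy1, Tek and Kdr were named for their values. All of these were named after the values were seen, and the same holds for genes in the last part.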

Additional observations from a re-analysis of the deposited data

How the results depend on the processing

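The numbers of members and of all probe sets called by limma were 0 under all 12 alternatives, and the smallest adjusted p of a member was 0.86. At an unadjusted p under 0.05 the count over all probe sets was 776. It fell to 362 when 11103 sets, those reaching the median level, were tested, and it was 1378 without control array 1. The members' median difference of -0.0026 lay between -0.060 and -0.0026 under the 5 alternatives with no array left out and no block. It lay between -0.079 and 0.079 with 1 array left out, where the spread of a lone control was taken from the exposed arrays.

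Only H2-D1 and Psmb10 kept their sign throughout. With replicate number as a block, in which exposed array 3 has no partner and adds nothing to the difference, B2m was -0.064, Tap2 0.046, Tapbp 0.091 and Psmb8 0.060, and no call changed. Same-numbered arrays did not deviate together over probe sets (correlations of -0.014 and -0.032). The 2 correlations are not independent, since the deviations of the 2 control arrays are equal and opposite. They cannot tell whether same-numbered cultures were run together, which the labels do not say. B2m was -0.0081 with re-centred arrays, -0.060 with array weights and -0.044 with blocks of neighbouring title numbers (equal to leaving out exposed array 1), and Tapbp was 0.017 with array weights. With 1 array left out, H2-K1 ranged from -0.18 to 0.016, B2m from -0.064 to 0.14, Tap1 from -0.10 to 0.27, Tap2 from -0.28 to 0.13, Tapbp from -0.13 to 0.13, Psmb8 from -0.18 to 0.060 and Psmb9 from -0.038 to 0.14. The cause of these changes was not tested. Averaging several probe sets of a gene gave no other value, as each member has 1.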

Other observations

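MHC class II genes, which present peptides taken up from outside, were 8 higher and 3 lower in mean, with a median of 0.052, and limma called 0 of 11. H2-Oa, a modulator of class II peptide loading, read 3.59, 3.08 and 3.04 on exposed arrays against 3.04 and 2.28 on control arrays, a difference of 0.58 (95% interval -0.10 to 1.26) at a level below the median of all probe sets. H2-Ab1, a class II beta chain, differed by 0.38 (-0.14 to 0.89). H2-Aa, its alpha chain partner, read 6.27, 5.42 and 4.61 against 5.28 and 5.53, so exposed arrays held both the highest and the lowest value. Measured natural killer ligands were 2 higher and 4 lower (median -0.041, 0 of 6 called by limma), with Pvr at 0.17 and Clec2d at -0.11. The other 6 of the 12 listed ligands, Raet1a to Raet1e and H60b, had no named probe set and are not analysed here.

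Exposed array 1 had the highest value of Tap2 (6.26), of Psmb8 (7.11), of the nonclassical heavy chain H2-T24 (6.22 against 5.42 to 5.58 elsewhere) and of H2-Aa (6.27), and the lowest of Irf7 (4.63), of Ganab (6.13) and of H2-T22 (4.96 against 5.30 or more elsewhere). These genes were picked after their values were seen. Exposed arrays 1 and 3 were the pair farthest apart over all genes, with 425 probe sets more than 2-fold apart, while exposed array 2 and control array 1 were the closest, with 107.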
